A study of Mus musculus with 16 samples.

Results

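Keratins are the intermediate filament proteins of epithelial cells, and the genes described here are those whose symbol is Krt followed by a number, with or without a lower-case letter. Of 22396 gene symbols in the deposited tables, 53 met this rule, and their TPM (a transcript's share of its library, corrected for length) was summed over their listed transcripts. They comprised 6 simple keratins (*Krt7*, *Krt8*, *Krt18*, *Krt19*, *Krt20* and *Krt23*), 20 squamous keratins, 25 hair and nail keratins and 2 others (*Krt222* and *Krt88*). The study asked how loss of TNFR2, a receptor of the cytokine TNF encoded by *Tnfrsf1b*, in the epithelium alters the colon's recovery from injury. Cells carrying EpCAM, a surface protein of epithelia, were isolated by flow cytometry from distal colons, and each of 16 mice gave its own library. After dextran sulfate sodium (DSS), which injures the colonic epithelium, there were 3 control mice (Tnfr2-f/f) and 4 mice labelled knockout (Vil1::Cre;Tnfr2-f/f). On water there were 4 controls and 5 labelled knockouts.

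All 4 groups thus carried the floxed Tnfr2 allele, and the groups labelled knockout also carried Cre driven by the promoter of Vil1 (villin), which is active in intestinal epithelium. The labels give 3% DSS for the DSS-treated mice, and 6 days of treatment and dissection on d 12 for every mouse. They give no age. The study's text gives a higher DSS concentration and describes the mice without DSS as uninjured mice of d 0, so the strength of the DSS and the day of the water-treated mice are uncertain. The 7 DSS-treated mice were female. Cage c held control 3 and knockout 1, and cage d held the other 5. On water, cage a held 4 males and cage b held 5 females, each with both genotypes, so cage and sex cannot be told apart there. No cage held both treatments, so treatment and cage cannot be told apart either. By the study's text, the injured parts of DSS-treated colons were separated from unaffected tissue before the cells were isolated. Treatment and the region sampled therefore cannot be told apart.

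A keratin filament is built from a type I keratin paired with a type II keratin. In the simple epithelium of the colon the type II partner is mainly *Krt8*, and the type I partners are *Krt18*, *Krt19* and, in differentiated surface cells, *Krt20*. Squamous epithelia use other pairs: *Krt5* with *Krt14* in the basal layer, *Krt4* with *Krt13* in the mucosal suprabasal layers, and *Krt6a* with *Krt16* or *Krt17* in wounded or stressed skin.

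The tables hold no read counts and so no depth per library, and the labels state only an approximate read yield common to all. In the authors' own mean of estimated counts, *Krt8* had a geometric mean of 20136 estimated counts per library after DSS and 11671 on water, and *Krt5* had 19.6 after DSS. *Tnfrsf1b* had 13.3 to 22.2 TPM among the DSS-treated controls and 13.5 to 27.0 TPM among the DSS-treated labelled knockouts, and 11.1 to 15.5 TPM against 9.23 to 14.8 TPM on water. The allele removes a single exon, and TPM of the whole transcript also counts reads from the others, so these values do not check the labels. The 8 epithelial markers (*Epcam*, *Cdh1* and others) were present in every mouse, with a summed 3254 to 5423 TPM. Markers of leukocytes summed to 25.9 to 67.8 TPM after DSS and 1227 to 2321 TPM on water, and plasma cell markers to 122 to 595 TPM against 576 to 14733 TPM. TPM is a share of the library, and whether these other cells moved the keratin values was not tested. Fewer cells of a type and less RNA per cell cannot be told apart in such data.

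Simple keratins made up nearly all keratin RNA in every mouse, from 98.3 to 99.5% of the summed keratin TPM. Of the 53 keratins, 17 were listed at 0 in all 16 mice, and 31, those included, stayed under 1 TPM in all of them. The other 22 reached 1 TPM in at least 1 mouse, and 19 had a mean of at least 1 TPM in at least 1 of the 4 groups. The minimum for a test, an average of 1 TPM across a table's mice, was met by 15 keratins after DSS and 12 on water.

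*Krt8* (chromosome 15 of mm10, 101996698 to 102004482, minus strand) was the most abundant keratin. It had 1718, 1552 and 2906 TPM in the DSS-treated controls 1 to 3, and 2281, 1782, 1767 and 1697 TPM among the DSS-treated labelled knockouts 1 to 4. On water it had 2365, 2179, 2811 and 1949 TPM among the controls and 2679, 2059, 2550, 2222 and 1956 TPM among the labelled knockouts. The ranges of all 4 groups overlapped, and within DSS the highest mouse of each genotype was the one from cage c. *Krt19* (chromosome 11, 100140810 to 100148665, minus strand), which pairs with *Krt8* and lacks most of the tail domain, followed with 688 to 1531 TPM after DSS and 769 to 1227 TPM on water. *Krt18* (chromosome 15, 102028180 to 102032027, plus strand), a type I gene that lies beside *Krt8* in the type II cluster, had 428 to 835 TPM and 515 to 674 TPM. The order *Krt8*, *Krt19*, *Krt18* held in all 16 mice, with *Krt8* between 1.81 and 2.54 times *Krt19* and *Krt19* between 1.40 and 2.22 times *Krt18*.

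*Krt20* (chromosome 11, 99428403 to 99438150, minus strand) came next. It had 265, 186 and 146 TPM among the DSS-treated controls and 188, 174, 166 and 169 TPM among the DSS-treated labelled knockouts. On water the controls had 165, 118, 204 and 150 TPM and the labelled knockouts had 175, 140, 144, 148 and 135 TPM. DSS-treated control 3, the mouse highest for *Krt8*, *Krt18* and *Krt19*, was the lowest of its treatment for *Krt20*. *Krt7* (chromosome 15, 101411043 to 101430313, plus strand), a type II keratin of ducts and glands, had 8.99 to 19.2 TPM after DSS and 2.36 to 13.7 TPM on water. *Krt23* (chromosome 11, 99477974 to 99493137, minus strand), a type I keratin of low abundance, had 8.07 to 12.8 TPM and 3.86 to 16.9 TPM. *Krt7* and *Krt23* lay below *Krt20* by more than their spread in all 16 mice, whereas their own ranges overlapped.

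**Figure D1:**
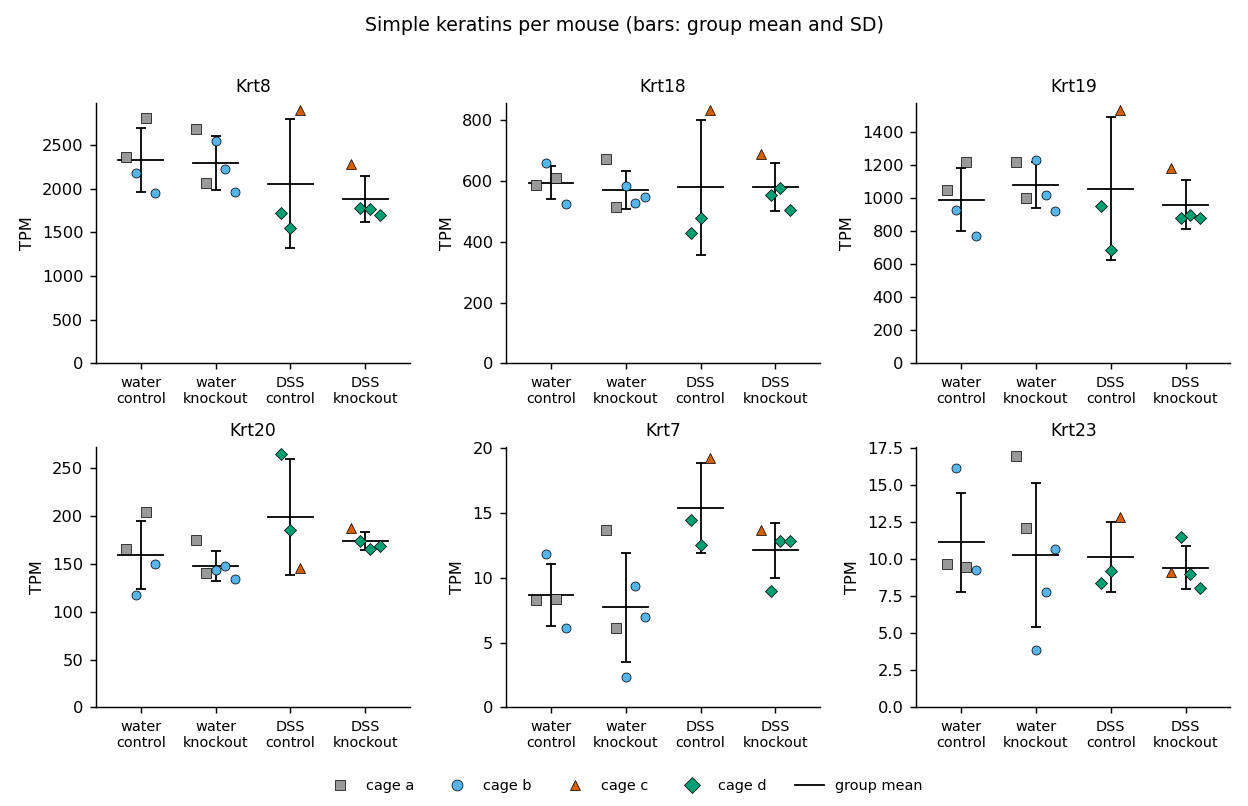
TPM of the 6 simple keratins in each mouse (points, shaped by cage) in the 4 groups, with the group mean and SD as bars and each y axis starting at 0. Krt8 ran from 1552 to 2906 TPM with overlapping groups, and the cage c mice were the highest of their DSS group for Krt8, Krt18 and Krt19 but not the highest of all DSS mice for Krt20.

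The tables of the DSS-treated and the water-treated mice were scaled separately, so they were compared by levels with no test. As deposited, the median gene was higher after DSS by 0.35 on the log2 scale over 11247 genes. All simple keratins but *Krt7* lay below that shift. The log2 ratio of mean TPM, DSS over water, was −0.24 for *Krt8*, −0.05 for *Krt19*, −0.00 for *Krt18*, 0.27 for *Krt20*, 0.73 for *Krt7* and −0.13 for *Krt23*. With a single rescaling over all 16 mice these were −0.60, −0.42, −0.37, −0.08, 0.37 and −0.49, so the direction for *Krt20* depends on the scale and that for *Krt7* does not. Of the 15 keratins that averaged at least 1 TPM over all 16 mice, a set that leaves out *Krt5*, all DSS-treated mice lay above all water-treated mice for 2 (*Krt13* and *Krt87*), where 18.9% of all genes with that average did so, and for 0 after the rescaling, where 4.49% did. *Krt5*, which was listed at 0 on water and fell short of that average, lay above at both scales. No keratin of the 15 lay below in all DSS-treated mice, against 4.16% of genes as deposited and 7.04% rescaled.

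Ratios within a mouse do not depend on the scale of a table. The type II simple keratins (*Krt7* and *Krt8*) were 1.05, 1.15 and 1.16 times the type I simple keratins (*Krt18*, *Krt19*, *Krt20* and *Krt23*) in the DSS-treated controls and 1.11, 1.11, 1.08 and 1.10 times in the DSS-treated labelled knockouts. On water the ratio was 1.31, 1.27, 1.38 and 1.34 in the controls and 1.29, 1.24, 1.30, 1.31 and 1.21 in the labelled knockouts. Every DSS-treated mouse was below every water-treated mouse, also among females alone, where cage b had 1.21 to 1.34. *Krt8* accounted for 50.8 to 53.3% of the simple keratin TPM after DSS and 54.7 to 57.8% on water, again without overlap. No single type I partner made up the difference: *Krt18* held 12.6 to 16.8% against 12.5 to 16.9%, *Krt19* held 23.5 to 28.1% against 22.5 to 27.2%, and *Krt20* held 2.68 to 7.84% against 3.02 to 4.41%, all overlapping. The ratio of *Krt8* to *Krt18* alone also overlapped, with 3.39 ± 0.31 (SD, n = 7) after DSS and 3.97 ± 0.40 (SD, n = 9) on water. Of the 31-base windows of the listed *Krt8* transcript, 32.2% also occur in its pseudogene *Krt8-ps*, and the share of reads that was divided between them is unknown.

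*Krt20* took a larger part of the simple keratins in 6 of the 7 DSS-treated mice than the median water-treated mouse (3.76%). The exception was control 3 with 2.68%, the lowest of all 16, and controls 1 and 2 had the highest shares, 7.84 and 6.35%. *Krt7* held 0.264 to 0.428% of the simple keratin TPM after DSS and 0.0523 to 0.303% on water, with DSS-treated knockout 2 the lowest and water control 2 the highest of their treatments. Set against the summed TPM of the 8 epithelial markers, the simple keratins stood at 0.835 to 1.03 after DSS and at 1.02 to 1.21 on water, with only a narrow overlap. That ratio was chosen after the data had been seen, and *Epcam* itself, on which the cells were sorted, is among the markers.

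**Figure D2:**
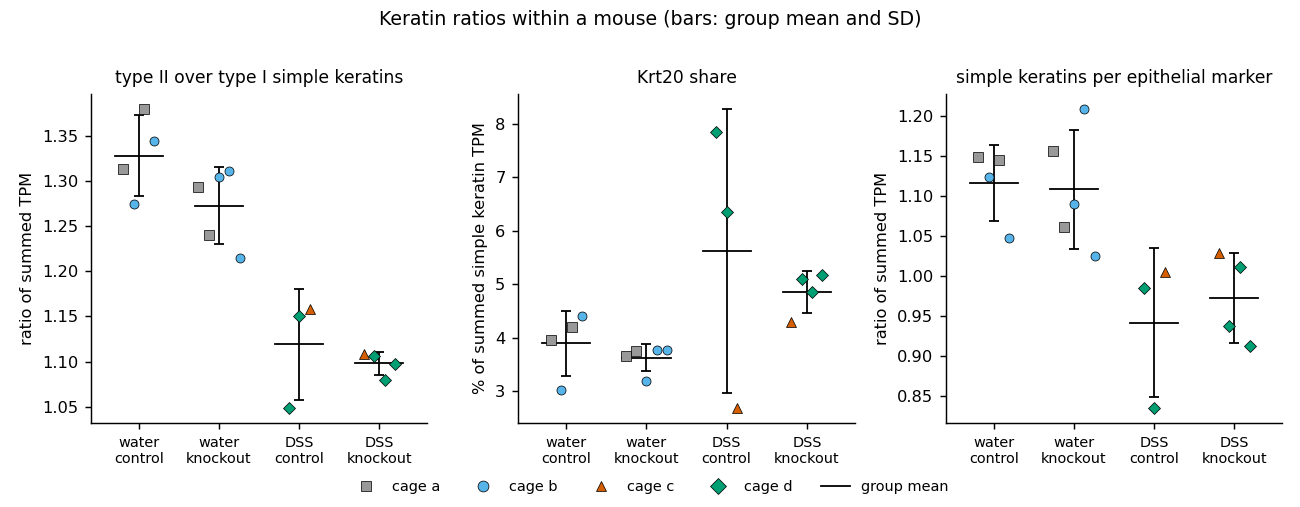
Ratios within each mouse (points, shaped by cage), with the group mean and SD as bars: summed type II over summed type I simple keratin TPM, Krt20 as a percentage of the simple keratin TPM, and simple keratin TPM over epithelial marker TPM. The y axes do not start at 0. The type II to type I ratio is 1.05 to 1.16 in the DSS-treated mice and 1.21 to 1.38 in the water-treated mice.

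The squamous keratins were low in every mouse. Their sum was 7.75 to 29.2 TPM after DSS and 3.18 to 11.8 TPM on water, or 0.224 to 0.849% and 0.087 to 0.240% of all keratin TPM. The mean was higher after DSS by 1.58 on the log2 scale, or 1.22 after the rescaling. Of the 20 members, 5 were at 0 in all 16 mice and 9 were under 1 TPM in all, and 6 could be tested after DSS against 2 on water.

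*Krt5*, the type II keratin of basal squamous cells (chromosome 15, 101707070 to 101712898, minus strand), was listed at 0 in all 9 water-treated mice. After DSS it had 3.15, 1.45 and 1.80 TPM among the controls and 1.45, 5.98, 0.18 and 1.81 TPM among the labelled knockouts. Its partner *Krt14* (chromosome 11, 100203162 to 100207548, minus strand) had 8.81, 1.91 and 3.14 TPM among the DSS-treated controls and 2.56, 6.95, 1.09 and 4.15 TPM among the DSS-treated labelled knockouts. On water *Krt14* was at 0 in 5 of 9 mice and reached 1.56 TPM. For both genes DSS-treated control 1 and knockout 2 were the highest and knockout 3 the lowest, and neither genotype stood apart. *Krt6a* (chromosome 15, 101689910 to 101694307, minus strand), a type II keratin of wounded skin, followed the same order of mice at its ends, with 6.15, 1.79 and 2.63 TPM among the DSS-treated controls and 1.45, 5.44, 0.63 and 2.48 TPM among the DSS-treated labelled knockouts. On water it reached 1.47 TPM. The sum of *Krt5* and *Krt14* stayed between 1.88 and 2.77 times *Krt6a* in the 7 DSS-treated mice.

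*Krt13* (chromosome 11, 100117327 to 100121566, minus strand), the type I keratin of mucosal suprabasal layers, had 4.12, 2.62 and 1.78 TPM among the DSS-treated controls and 6.27, 2.76, 1.46 and 2.45 TPM among the DSS-treated labelled knockouts. On water it stayed at or below 1.42 TPM. Its highest mouse was DSS-treated knockout 1, which was low for *Krt14* and *Krt6a*, so *Krt13* did not share their order of mice. *Krt15*, a type I keratin of basal cells, had 0.25 to 2.91 TPM after DSS and 0.70 to 2.04 TPM on water, with a log2 ratio of 0.05. *Krt6b* had 0.34 to 2.20 TPM and 0 to 1.11 TPM. *Krt90*, counted among the hair and nail keratins and not in the squamous sum, reached 2.34 TPM after DSS and 0.10 TPM on water. *Krt10*, *Krt78* and *Krt80*, which belong to differentiating squamous cells, exceeded 1 TPM in at least 1 mouse and 1.70 TPM in none.

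Members of the squamous group share long stretches of sequence. Of the 31-base windows of the listed transcripts, 55.1% of *Krt6a*, 57.0% of *Krt6b*, 51.9% of *Krt16*, 29.1% of *Krt14*, 15.8% of *Krt17* and 12.8% of *Krt5* occur in another gene, against 0.185% for *Krt13*, 0.517% for *Krt19* and none for *Krt20* and *Krt23*. The TPM of the first group are therefore uncertain. At the rate that *Krt8* gives, 1 TPM of *Krt5* was worth about 11.8 estimated counts after DSS and 5.72 on water, and 1 TPM of *Krt14* about 9.12 and 4.42, so values near 1 TPM rest on few reads.

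**Figure D3:**
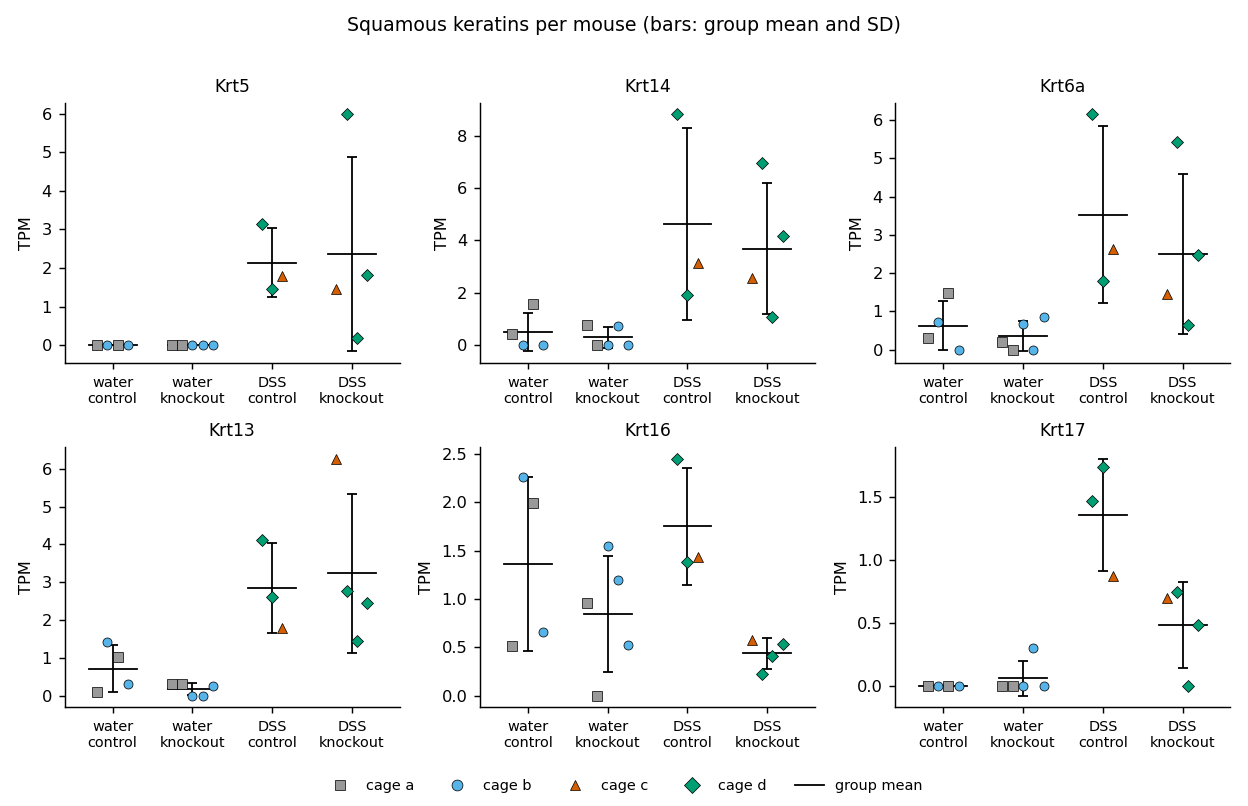
TPM of 6 squamous keratins in each mouse (points, shaped by cage) in the 4 groups, with the group mean and SD as bars and each y axis including 0. Krt5 is listed at 0 in all water-treated mice, Krt14 and Krt6a are highest in DSS-treated control 1 and knockout 2, and Krt16 and Krt17 do not overlap between the genotypes after DSS.

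Defining genes of squamous epithelium other than keratins were mostly low or at 0. Of 28 such markers, 8 had a mean of at least 1 TPM after DSS and 8 on water. On water 11 were listed at 0 in every mouse, and after DSS 5 were. Those at 0 throughout on water but not after DSS were *Trp63*, *Dsc3*, *Dsc1*, *Sprr1b*, *Sprr2d*, *Sprr3* and *Calml3*, and *Dsg1a* was the reverse. *Trp63*, the master transcription factor of basal squamous cells, had at most 0.00359 TPM in the 16 mice, and *Flg*, *Krtdap*, *Dmkn* and *Cnfn* were listed at 0 throughout. *Dsg3*, the desmosomal cadherin of basal keratinocytes, had at most 0.38 TPM. By mean over all 16 mice the highest of the markers were *Sfn* (180 to 366 TPM after DSS, 272 to 531 TPM on water), *Sprr1a* (83.0 to 142 TPM, 72.3 to 146 TPM) and *Tgm3* (14.5 to 42.3 TPM, 101 to 180 TPM). Of the 8 that averaged at least 1 TPM over all mice, 2 lay above in all DSS-treated mice as deposited, where 18.9% of all genes did, namely the serpin *Serpinb5* (29.1 to 47.6 TPM, 10.54 to 18.7 TPM) and the desmosomal *Pkp1* (15.7 to 23.7 TPM, 7.79 to 15.1 TPM). After the rescaling this held for *Serpinb5* alone, where 4.49% of all genes did so. *Tgm3* lay below in all DSS-treated mice at both scales and *Sfn* after the rescaling only. *Sprr2d*, a cornified envelope protein, was listed at 0 in all 9 water-treated mice and had 0.27 to 5.66 TPM after DSS, the highest value again in DSS-treated control 1. Fibroblast markers summed to 427, 115 and 196 TPM among the DSS-treated controls and to 118, 484, 556 and 122 TPM among the labelled knockouts. The mouse with the lowest squamous keratins, knockout 3, thus had the most fibroblast marker TPM, while control 1 and knockout 2 were high for both, and their part in the squamous values was not tested.

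Among the 25 hair and nail keratins, 12 were at 0 in all mice, and *Krt36* made up most of the rest. *Krt36* (chromosome 11, 100102007 to 100105626, minus strand), a type I hair keratin, had 18.7, 19.9 and 21.8 TPM among the DSS-treated controls and 48.1, 12.4, 19.6 and 23.2 TPM among the DSS-treated labelled knockouts. On water it had 20.6 to 42.8 TPM among the controls and 10.2 to 39.9 TPM among the labelled knockouts. It was thus as abundant as *Krt7* or more so, and neither treatment nor genotype separated its values. *Krt87* had 5.22 to 9.31 TPM after DSS and 2.02 to 5.04 TPM on water, a log2 ratio of 1.25, or 0.89 after the rescaling, and 52.4% of its windows occur in other genes. *Krt83* and *Krt84* stayed at or below 3.10 TPM. *Krt222* and *Krt88* did not reach 1 TPM in any mouse.

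Promoter sequences are shown for 4 keratins that the levels above set apart: *Krt20* and *Krt7*, which kept the highest DSS to water ratios of the simple keratins, and *Krt5* and *Krt13*, which were low or at 0 on water. They are the 150 bases before the RefSeq start on GRCm38.p6 (the assembly also called mm10), written 5′ to 3′ on the gene's strand, and those starts lie 0 to 7 bases from the start of the listed transcript. RefSeq gave a promoter for 36 of the 53 keratins. Capitals mark matches to any of 4 motifs, searched on both strands. The letters searched for the TATA box were TATAAA. For the binding site of the AP-1 factors they were TGANTCA, where N is any base. The box bound by factors such as Sp1 was searched as GGGCGG. For the intestinal CDX factors, whose members include Cdx2, the letters were TTTATG.
Krt20, chr11:99438154-99438303, minus strand: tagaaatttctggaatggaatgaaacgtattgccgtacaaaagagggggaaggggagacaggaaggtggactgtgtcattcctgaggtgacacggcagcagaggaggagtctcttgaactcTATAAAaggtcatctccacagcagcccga
Krt7, chr15:101412253-101412402, plus strand: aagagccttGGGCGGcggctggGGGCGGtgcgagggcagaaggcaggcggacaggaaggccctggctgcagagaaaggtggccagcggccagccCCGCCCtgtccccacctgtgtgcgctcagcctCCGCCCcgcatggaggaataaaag
Krt5, chr15:101712906-101713055, minus strand: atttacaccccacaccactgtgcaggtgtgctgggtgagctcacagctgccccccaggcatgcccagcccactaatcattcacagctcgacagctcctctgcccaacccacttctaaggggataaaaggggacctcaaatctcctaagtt
Krt13, chr11:100121567-100121716, minus strand: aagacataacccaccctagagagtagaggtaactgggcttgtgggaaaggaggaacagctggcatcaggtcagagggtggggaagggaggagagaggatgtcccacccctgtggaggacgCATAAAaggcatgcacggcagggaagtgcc
*Krt20* holds a TATAAA whose first base lies 29 bases before the start, and it was the only simple keratin of those matched with this motif. For *Krt8* and *Krt18* the RefSeq start lies 140 and 36 bases from that of the listed transcript. A motif before the listed start may therefore be missed for these genes. *Krt7* holds 4 matches to GGGCGG while *Krt20*, *Krt5* and *Krt13* hold none. *Krt13* holds a match to TTTATG, on the other strand, and *Krt5* holds none of the 4. Over the 36 keratins, 15 held TATAAA against 7.57% of 32851 promoters of the same length. Of these, 11 were hair and nail keratins, 3 squamous and 1 simple. Further, 10 of the 36 held TTTATG against 6.33%, 2 held GGGCGG against 28.6% and 0 held TGANTCA against 4.24%. A match is a description of the letters only.

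Genotype was compared within each treatment by limma on log2(TPM + 1), a scale on which the change of low genes is understated, with Benjamini-Hochberg adjustment over all genes tested. After DSS, 0 of 15 keratins were called at an adjusted p under 0.05, where 0.00918% of all genes (1 of 10899) were. At an unadjusted p under 0.05 there was 1 keratin (*Krt16*), against 2.65% of all genes. *Krt8* differed by −0.08 (knockout minus control, SE 0.24), *Krt18* by 0.06 (SE 0.24), *Krt19* by −0.07 (SE 0.27) and *Krt20* by −0.15 (SE 0.19). *Krt7* differed by −0.32 (SE 0.20) and *Krt23* by −0.09 (SE 0.19), and the squamous *Krt5*, *Krt14* and *Krt13* by −0.16 (SE 0.56), −0.23 (SE 0.55) and 0.07 (SE 0.39). The SD of *Krt8* was 738 TPM among the 3 controls and 269 TPM among the 4 labelled knockouts, so the spread between mice was larger than the difference between genotypes.

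The wound keratins *Krt16* and *Krt17*, type I partners of *Krt6a*, were the exceptions in overlap. *Krt16* had 2.45, 1.38 and 1.43 TPM among the DSS-treated controls and 0.58, 0.22, 0.41 and 0.54 TPM among the labelled knockouts. Every control lay above every labelled knockout, a log2 fold change of −0.92 (SE 0.28) with a limma p of 0.0106 and an adjusted p of 1.00. The exact two-sided permutation test gave p = 0.0286 (n = 3 and 4), the smallest that 35 splits allow. Over all genes tested 1.55% were lower without overlap. *Krt16* reached the minimum for a test, with a mean of 1.00 TPM, only through the controls, so its presence among the genes tested is tied to its high values there and that share does not bear on it. Runs that dropped a labelled knockout gave values from −0.97 to −0.85 for this fold change. When a DSS-treated control was dropped instead, *Krt16* fell under the minimum for a test and had no fit. How far the difference rests on a single control was therefore not tested. *Krt17*, too low to enter limma, had 1.47, 1.74 and 0.87 TPM among the controls and 0.70, 0.74, 0 and 0.49 TPM among the labelled knockouts (exact permutation p = 0.0286). The permutation test was run for *Krt17* only because its mean in the DSS-treated controls, 1.36 TPM, reached 1 TPM. Its p is therefore tied to its high values there and gives no support of its own. The values of both keratins rest on few reads, and 51.9% of the windows of *Krt16* occur in other genes. On water *Krt16* had 0.52 to 2.27 TPM among the controls and 0 to 1.54 TPM among the labelled knockouts, overlapping, and *Krt17* was at 0 except in knockout 4 with 0.30 TPM. Whether the genotypes differ more after DSS than on water was not tested, since the tables are scaled separately.

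On water, 0 of 12 keratins were called, where 0.00905% of all genes (1 of 11046) were, and 0 had an unadjusted p under 0.05, against 5.28% of all genes. No keratin was without overlap between the genotypes, against 1.55% of all genes. *Krt8* differed by −0.02 (SE 0.16), *Krt19* by 0.13 (SE 0.16), *Krt18* by −0.06 (SE 0.11) and *Krt20* by −0.08 (SE 0.15), and *Krt36* had the widest difference, −0.70 (SE 0.41). The median over the 12 was −0.14, beside 0.00 over all genes tested, and after DSS the median over the 15 was −0.08, beside 0.02.

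The cages set the abundant keratins apart after DSS, although no call was made. Cage c (control 3 and knockout 1) had 2594 ± 442 TPM of *Krt8* (SD, n = 2) and cage d 1703 ± 91.2 TPM (SD, n = 5), a log2 fold change of 0.59 (SE 0.13) with genotype in the fit. *Krt18* differed by 0.60 (SE 0.15) and *Krt19* by 0.65 (SE 0.17), and all 3 had an adjusted p of 0.199 from limma. Both mice of cage c lay above all 5 of cage d for 5 of 15 keratins (*Krt8*, *Krt18*, *Krt19*, *Krt15* and *Krt87*), where 15.6% of all genes did so, and none lay below, where 9.94% of all genes did. At an unadjusted p under 0.05 there were 6 of 15 keratins, the same 5 and *Krt36*, against 19.4% of all genes, and the count of all genes called was 0 of 10899 (0%). The exact two-sided permutation test gave p = 0.0476 for *Krt8* (n = 2 and 5), the smallest that 21 splits allow.

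*Krt20* did not move with the other abundant keratins, at 167 ± 29.4 TPM in cage c and 192 ± 41.7 TPM in cage d (log2 fold change −0.21, SE 0.21, adjusted p = 0.582). *Krt15* differed by 0.86 (SE 0.34), *Krt36* by 0.81 (SE 0.33), *Krt87* by 0.40 (SE 0.17), *Krt7* by 0.36 (SE 0.18) and *Krt23* by 0.21 (SE 0.19), while *Krt5*, *Krt14* and *Krt6a* had −0.20 (SE 0.65), −0.34 (SE 0.63) and −0.37 (SE 0.59). With DSS-treated knockout 1 left out, cage c was control 3 alone, which is then assumed to vary like the others, and 2 keratins (*Krt8* and *Krt18*) and 326 genes were called. With control 3 left out instead, 0 keratins and 1 gene were called. The epithelial markers summed to 4240 and 5423 TPM in cage c and 3388 to 3638 TPM in cage d, and the simple keratins per epithelial marker were 1.00 and 1.03 in cage c and 0.835 to 1.01 in cage d, so on that scale the cages overlapped. Goblet cell markers were at 9541 TPM in DSS-treated control 3, against 2528 to 3749 TPM in the other 6 mice, and their part in the keratin values was not tested.

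On water the cages, which are also the sexes, gave 0 of 12 keratins called, where 0.0362% of all genes (4 of 11046) were. *Krt20* was 171 ± 26.4 TPM in the males of cage a and 139 ± 13.2 TPM in the females of cage b (log2 fold change 0.28, SE 0.13, adjusted p = 0.752), with overlap, and the exact permutation test gave p = 0.0476 (n = 4 and 5). *Krt8* differed by 0.19 (SE 0.15) and *Krt19* by 0.23 (SE 0.15). All 6 simple keratins had the higher mean in cage a, and none had an unadjusted p under 0.05 by limma, where 6.83% of all genes did. This direction was shared by 8 of 8 epithelial markers and 9 of 10 surface colonocyte markers, but by 0 of 8 fibroblast markers. Their part in the keratin values was not tested.

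**Figure D4:**
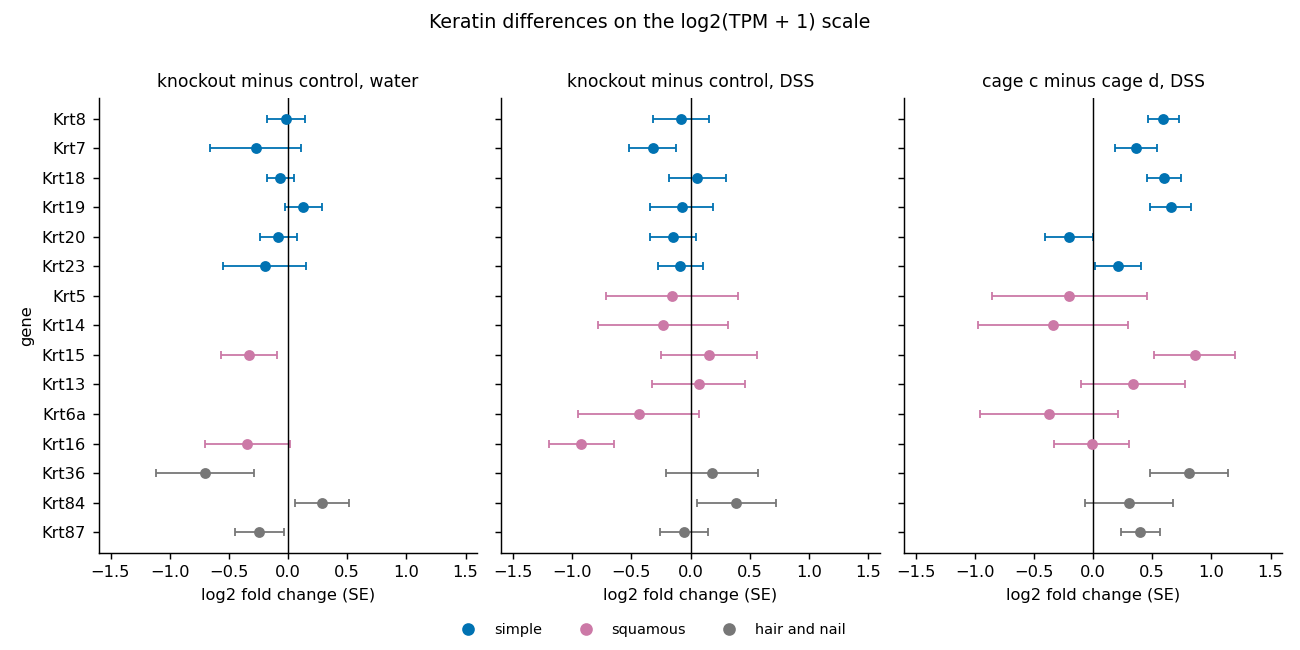
Log2 fold changes on the log2(TPM + 1) scale (x axis) with their SE from limma for the keratins tested (y axis, coloured by kind), for genotype on water, genotype after DSS and cage after DSS. Krt16 is the lowest after DSS by genotype, at −0.92, and Krt8, Krt18 and Krt19 lie at 0.59 to 0.65 by cage, with no keratin called in any panel.

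Keratin filaments are anchored at desmosomes and bound by linker proteins, and these genes had a higher median DSS to water ratio than the simple keratins. The summed TPM of 20 desmosome and linker genes was 1088 to 1342 after DSS and 686 to 862 on water, without overlap as deposited, whereas after the rescaling it was 878 to 1130 and 758 to 945 and overlapped. All DSS-treated mice lay above all water-treated mice for 8 of 18 linkers at the deposited scale, where 18.9% of all genes did, and for 2 of 18 (*Dsp* and *Pkp2*) after the rescaling, where 4.49% did. The median log2 ratio of the 18 was 0.71, or 0.34 rescaled, beside −0.03 and −0.39 for the 6 simple keratins and 0.35 over all genes as deposited. Desmoplakin (*Dsp*), which ties keratins to the desmosome, had 61.6 to 74.3 TPM after DSS and 23.5 to 44.1 TPM on water. Plakophilin 2 (*Pkp2*), its partner in the desmosomal plaque, had 23.9 to 36.6 TPM and 11.9 to 17.6 TPM. The highest of the list were the 14-3-3 proteins *Ywhaz* (169 to 291 TPM, 108 to 161 TPM), *Ywhae* (171 to 256 TPM, 116 to 134 TPM) and *Ywhah* (176 to 228 TPM, 116 to 144 TPM), which bind phosphorylated keratins among many other partners.

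By genotype 0 of 18 linkers were called after DSS and 0 of 18 on water, with 1 and 4 at an unadjusted p under 0.05, against 2.65 and 5.28% of all genes. By cage after DSS 0 of 18 were called and 6 had an unadjusted p under 0.05, against 19.4% of all genes. Among them were *Jup* (plakoglobin), at 112 ± 20.1 TPM in cage c and 71.8 ± 4.91 TPM in cage d, and *Dsc2* (desmocollin 2), at 12.1 ± 9.00 TPM and 27.2 ± 6.38 TPM, both with an adjusted p of 0.199 from limma. Linkers thus lay on both sides in cage c. Of the other intermediate filaments, 6 of 16 had a mean of at least 1 TPM after DSS. The mesenchymal *Vim* was at 16.1 to 61.0 TPM after DSS and 83.0 to 225 TPM on water, without overlap at either scale. Of all genes, 4.16% lay below in this way as deposited and 7.04% rescaled. The lamin *Lmnb1* was at 27.5 to 42.3 TPM and 11.7 to 21.9 TPM. It lay above without overlap only as deposited, where 18.9% of all genes did so, and overlapped after the rescaling. *Lmna*, the highest by mean after DSS though below *Vim* on water, had 97.8 to 154 TPM and 67.1 to 145 TPM, overlapping. None of the 6 was called by genotype or by cage.

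Across the 9 water-treated mice, *Krt8* and *Krt19* varied together on the log2 scale, with Pearson's r = 0.910 (exact permutation p = 0.0007055, adjusted over 3 relations 0.00212) and Spearman's rho = 0.933 (p = 0.00075, adjusted 0.00225). Without the 2 mice farthest from the median of *Krt8*, r was 0.872. For *Krt8* and *Krt18*, r was 0.646 (exact permutation p = 0.0656, adjusted 0.0656) and rho 0.683 (p = 0.0503, adjusted 0.0755), and r without the 2 farthest mice was 0.443. For *Krt8* and *Krt20*, r was 0.711 (exact permutation p = 0.0289, adjusted 0.0434) and rho 0.633 (p = 0.076, adjusted 0.076), and r fell to 0.245 without the 2 farthest mice, so this relation rests on them. The other simple keratins, *Krt7* and *Krt23*, had r of 0.08 and −0.13 with *Krt8*, given with no p. Among all genes averaging at least 1 TPM on water, *Krt19* ranked 17, *Krt20* 293 and *Krt18* 501 by r with *Krt8*. All levels are shares of the same library, which the genes of a mouse have in common. The 9 water-treated mice come from cages a and b, which are also the sexes. These keratins had higher means in cage a, and the permutations took no account of that split. The 7 DSS-treated mice split by cage too, and no r was pooled over them.

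By Pearson's r of log2(TPM + 1) over the 9 water-treated mice, as a description, the genes whose pattern was most like that of *Krt20* included *Lrba* (0.935), *Ints2* (0.913), *Mgat4b* (0.903) and *Ube2g1* (0.899). For the summed squamous keratins on water the nearest were *Aldh1a3*, *Hspa12a*, *Frmd6*, *Cdc42bpb* and *Gm10591*. These lists come from a search of 11046 genes over 9 mice.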

How the data were processed

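Sorted EpCAM+ colonic cells of 16 mice were profiled by RNA-seq. Groups, replicate numbers, cage and sex came from the sample labels. The authors prepared stranded poly(A) libraries, sequenced single reads of 75 bases and quantified them with kallisto. The submitters' notes name mm10, and no transcript release is given in the sources used here. The authors deposited a table per treatment with TPM for 28988 transcripts after 385 repeated lines were dropped. All are APPRIS principal isoforms, so each mouse's TPM sum to between 487469 and 861109. Scaling was done within each table and apart from the other. The authors also deposited, for each transcript, an average natural log of its estimated counts per table, printed here as their value, as well as fold changes, p-values and q-values of their own tests, which were not used.

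TPM was summed by gene symbol. The 53 keratins and all lists were chosen with earlier results of these data known. All 54 keratin transcripts were found in GENCODE M21 (GRCm38), the source of positions. Within a treatment, genotype, and cage with genotype as a covariate, were tested by limma 3.58.1 (R 4.3.3) on log2(TPM + 1) with a variance trend, for genes averaging at least 1 TPM. P-values were adjusted by Benjamini-Hochberg over those genes and called under 0.05. An exact two-sided permutation test was added for single keratins, whose smallest p is 0.0286 for 3 against 4, 0.00794 for 4 against 5 and 0.0476 for 2 against 5. The limma test was checked on simulated data. No test was run between the tables. Sums and ratios got no test. The number of mice limits the precision. Named were all simple keratins, other keratins reaching 1 TPM in a mouse (values where a group mean reached 1 TPM), the 3 highest of the linker, filament and squamous marker lists, the 5 genes most like a pattern (those for *Krt20* and the squamous sum on water are given, except 1 that is not reported here, and those after DSS are left out because the mice split by cage), and *Tnfrsf1b*. Other genes (among them *Dsp*, *Pkp2*, *Jup*, *Dsc2*, *Trp63*, *Flg*, *Krtdap*, *Dmkn*, *Cnfn*, *Dsg3*, *Sprr2d*, *Serpinb5* and *Pkp1*) were picked after their values were seen.

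Same-numbered mice are different animals. Their deviations from the means of their groups correlated at −0.20 to −0.03 after DSS and −0.08 to 0.09 on water, so they were not treated as pairs. Alternatives were a pseudocount of 0.1, no filter or a mean of at least 5 TPM, median-of-ratios rescaling, cage as a covariate, no genotype term, a replicate block and leaving out each mouse. Python 3.11.15, numpy 2.4.6, pandas 2.3.3, scipy 1.17.1 and matplotlib 3.10.9 were used.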

Additional observations from a re-analysis of the deposited data

Results flagged for a closer look

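In groups of 4 or 5 mice, 80 sets of values were checked for a mouse far from the others (a gap to its nearest neighbour of over 0.829 of the group's range with 4 mice, or 0.710 with 5), and 7 were found. Chance gives about 1 in 20.

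In the DSS-treated mice labelled knockout, knockout 1, the only one of its group from cage c, stood above the other 3 for *Krt8* (2281 TPM), for *Krt19* (1182 TPM) and for the summed simple keratins (4364 TPM). The other 3 mice were all from cage d, so within this group the mouse and its cage cannot be told apart.

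On water, *Krt23* was highest in control 2 at 16.1 TPM, and the share of *Krt20* among the simple keratins was lowest in knockout 3 at 3.19%. *Krt17* was above 0 in knockout 4 alone among the water-treated mice labelled knockout, at 0.30 TPM, and *Krt90* in control 1 alone among the water-treated controls, at 0.10 TPM. Both are below 1 TPM.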

How the results depend on the processing

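No keratin was called by genotype in either treatment, or by cage on water, under any alternative run. By cage after DSS, leaving out 1 mouse moved the count of keratins from 0 to 2, and the cause was not tested beyond the fewer mice. Of 289 single keratin values under the other alternatives, 280 counted as unchanged, 5 changed direction and 4 moved. For genotype and cage, unchanged means the same direction and the same call, and size was not compared. For DSS against water, moved means a shift of at least the SD between mice within a treatment. The count of all genes called by genotype after DSS (1) was 0 with a pseudocount of 0.1, without a filter and with a replicate block, and 0 to 3 with each mouse left out. By genotype on water (1) it was 0 with a pseudocount of 0.1, with a mean of at least 5 TPM and with a replicate block, 4 without a filter, and 1 to 2 with each mouse left out. By cage after DSS (0) it was 2 without a filter and 2 without the genotype term, and 0 to 326 with each mouse left out. By cage on water (4) it was 3 to 7 with each mouse left out. The cause of these shifts was not tested.

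The replicate block, in which a mouse whose number occurs in 1 group does not count, changed no keratin call. With it the direction of *Krt8* by genotype on water turned to 0.037 and that of *Krt83* to −0.0113. With cage as a covariate that of *Krt8* was 0.00086. *Krt16* by cage after DSS was 0.11 with a pseudocount of 0.1 and 0.079 without the genotype term. With each mouse left out, the direction turned for values near 0. By genotype after DSS the ranges were −0.23 to 0.30 (*Krt13*), −0.61 to 0.27 (*Krt14*), −0.21 to 0.61 (*Krt15*), −0.13 to 0.35 (*Krt18*), −0.34 to 0.23 (*Krt19*), −0.35 to 0.078 (*Krt20*), −0.20 to 0.082 (*Krt23*), −0.16 to 0.46 (*Krt36*), −0.60 to 0.25 (*Krt5*), −0.26 to 0.19 (*Krt8*) and −0.21 to 0.16 (*Krt87*). On water they were −0.22 to 0.045 (*Krt20*), −0.39 to 0.076 (*Krt23*), −0.50 to 0.032 (*Krt7*), −0.099 to 0.077 (*Krt8*) and −0.19 to 0.42 (*Krt83*). By cage after DSS they were −0.63 to 1.20 (*Krt13*), −0.68 to 0.018 (*Krt14*), −0.24 to 0.012 (*Krt16*), −0.60 to 0.14 (*Krt20*), −0.044 to 0.50 (*Krt23*) and −0.52 to 0.12 (*Krt5*), and by cage on water −0.032 to 0.13 (*Krt18*). The range for *Krt16* covers only the runs without a labelled knockout, since without any of the DSS-treated controls it fell under the minimum for a test.

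Between the tables, the log2 ratio of the summed simple keratins was −0.13 as deposited (−0.24 to −0.08 with each mouse left out) and −0.49 after a single rescaling over all 16 mice. The rescaling set *Krt8* to −0.60, *Krt18* to −0.37, *Krt19* to −0.42 and *Krt20* to −0.08. The type II to type I ratio taken as *Krt8* over *Krt18* alone was 3.39 after DSS and 3.97 on water, since fewer genes enter it. The depth of single libraries is unknown, and squamous keratins near 1 TPM rest on few reads.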
